A study of Arabidopsis thaliana with 18 samples.

Results

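The 40S subunit is the part of the cytosolic ribosome that binds the mRNA and decodes it. Arabidopsis encodes most of its proteins in small gene families, so that the same ribosomal protein can be made from several loci. Described here are 52 such loci of 22 protein families, chosen by locus from the gene annotation as proteins of the cytosolic small subunit, out of 27444 coding genes on chromosomes 1 to 5 (TAIR10, RefSeq copy of the Araport11 gene models). Of the 52 genes, 49 had a TIF-cluster in at least 1 list, and 47 had one in all 6. Another 38 genes of the small subunit, which include those of RPS15, RPS25, RPS28, RPS29 and the ribosome-bound scaffold RACK1, were used only for comparison.

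TIF-seq (Transcript Isoform sequencing) reads the 5′ and the 3′ end of the same polyadenylated RNA molecule, so that each read pair joins a transcription start site (TSS) to a polyadenylation site (PAS). The libraries came from Col-0 seedlings of 14 days grown at 22 °C by day and 18 °C at night. Wild type and the mutants hen2-2, spt16-1 and ssrp1-2 were taken without further treatment. For 2 further lists, wild-type and hen2-2 seedlings were moved to 4 °C for 3 h. HEN2 is an RNA helicase that works with the nuclear exosome, which degrades unstable nuclear RNA, and SPT16 and SSRP1 are the subunits of the histone chaperone FACT. Each genotype and temperature has 1 list that pools 2 replicate libraries. The spread between replicates thus cannot be estimated from the lists, and no comparison below has a test. The study reports a lower correlation between replicate libraries for wild type in the cold than for any other group. Intervals are exact 95% intervals (Clopper-Pearson for shares, Poisson for levels, conditional for ratios) and cover counting error only. The lists held between 410655 (hen2-2 at 4 °C) and 924907 (spt16-1) read pairs. HEN2 itself had no TIF-cluster in either hen2-2 list, but it had only 4 pairs in wild type at 22 °C and no TIF-cluster in wild type at 4 °C, and SSRP1 had 5 pairs in wild type against none in ssrp1-2, so these genes check the labels only weakly. SPT16 had 30 pairs in wild type and 31 in spt16-1.

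Genes for ribosomal proteins in plants are known for 2 short promoter elements. Site II (TGGGCC or TGGGCT) is bound by TCP factors in Arabidopsis, and the telo box (AAACCCTA) lies near the start of many genes of the translation machinery. The 150 bases before the most used 5′ end of full-length TIF-clusters are shown for 4 genes that carry the results below. They read 5′ to 3′ on the strand of the gene, with both elements, on either strand, in capitals. The last 10 to 28 bases of each are annotated as exon, since the most used 5′ end lies inside the annotated 5′-UTR. The first gene, AT5G10360 (RPS6), had the highest level, AT1G72370 (RPSa) differed most between hen2-2 and wild type, AT5G56670 (RPS30) differed most between wild type at 4 °C and 22 °C among the better covered genes, and AT5G15200 (RPS9) had a start inside its coding sequence in every list.
AT5G10360, chr5:3260227-3260376, minus strand: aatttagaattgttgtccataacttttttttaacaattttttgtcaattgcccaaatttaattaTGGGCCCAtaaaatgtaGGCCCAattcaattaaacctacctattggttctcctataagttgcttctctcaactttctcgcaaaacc
AT1G72370, chr1:27244922-27245071, minus strand: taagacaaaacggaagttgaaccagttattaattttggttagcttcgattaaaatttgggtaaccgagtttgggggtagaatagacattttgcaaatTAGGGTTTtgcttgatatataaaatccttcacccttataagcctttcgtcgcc
AT5G56670, chr5:22936061-22936210, minus strand: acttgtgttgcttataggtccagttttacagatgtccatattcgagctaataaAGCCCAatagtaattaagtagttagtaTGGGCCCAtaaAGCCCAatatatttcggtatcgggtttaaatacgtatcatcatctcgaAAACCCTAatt
AT5G15200, chr5:4936402-4936551, minus strand: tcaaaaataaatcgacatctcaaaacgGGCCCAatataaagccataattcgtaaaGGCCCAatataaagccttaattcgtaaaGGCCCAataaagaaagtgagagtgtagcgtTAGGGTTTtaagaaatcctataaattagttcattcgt

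Site II and the telo box were frequent among these genes. Within 200 bases before the most used 5′ end, TGGGCC or TGGGCT on either strand was found at 40 of the 49 genes with a full-length TIF-cluster (81.6%), against 24.8% of the 13493 coding genes with one. The windows can share a palindromic TGGGCCCA, which holds TGGGCC on both strands. AAACCCTA on either strand was found at 27 of 49 (55.1%), against 5.41% of coding genes, and both elements together at 24 of 49, against 2.32%. Matches of site II began at a median of -93.5 bases from the 5′ end and matches of the telo box at -35.5. TATAAA on the strand of the gene, in the last 50 bases, was found at 23 of 49 (46.9%), against 16.7%. The window of AT5G10360 held 3 matches of site II and no telo box, while that of AT1G72370 held a telo box and no site II. A match is a description of the letters and not a test of binding.

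The most used 5′ ends of these genes also differed in their letters from those of all coding genes. They are ends of TIF-clusters, whose pairs were joined within 20 nt, so they need not resolve a start to the base. The first base of the most used 5′ end was C at 42.9% of the 49 genes and A at 16.3%, whereas over all coding genes it was C at 23.3% and A at 35.5%. A pyrimidine stood just before this end at 75.5% of them, against 56.2% of all coding genes. A pyrimidine before an A as first base was less frequent, at 10.2% against 15.5%. Of the bases at positions 2 to 6, a mean of 2.82 were pyrimidines, against 2.66 over all coding genes.

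The 40S genes were abundant and unequal. Together they took 17044 CPM (read pairs per 1000000 pairs of the list) in wild type at 22 °C, a share of the list with a 95% interval of 1.68 to 1.73%, and 20247 in hen2-2, 14299 in spt16-1, 17018 in ssrp1-2, 15142 in wild type at 4 °C and 14674 in hen2-2 at 4 °C. A read pair stands for a molecule, so that these levels are not divided by length, and the annotated mRNA of the 52 genes ranged from 494 to 1653 nt. Over the genes with a TIF-cluster, the median of the mean level over the 6 lists was 192 CPM. The 10 highest genes took between 54.8% (wild type at 22 °C) and 58.6% (spt16-1) of all pairs of the 52.

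The highest levels were those of AT5G10360 and AT2G41840. AT5G10360 encodes RPS6, the protein phosphorylated by S6 kinase downstream of TOR, and had 1523 CPM in wild type, 1808 in hen2-2, 1318 in spt16-1, 1585 in ssrp1-2, 1419 in wild type at 4 °C and 1286 in hen2-2 at 4 °C. AT2G41840 encodes RPS2, which lines the path of the mRNA into the subunit, and ranged from 1069 (wild type at 4 °C) to 1771 (hen2-2). Among the 10 highest in mean level over the 6 lists were also AT4G34670 (RPS3a, mean 1092), AT5G18380 (RPS16, whose tail reaches the tRNA in the P site, 932), AT4G31700 (the other RPS6 gene, 766), AT5G15200 (RPS9, at the mRNA entry, 659), AT1G72370 (RPSa, 658) and AT4G29390 (RPS30, 524). AT5G18380 varied least of the 47 genes found in every list, with a highest level 1.22 times the lowest, and 27 of the 47 varied by less than 2 times. AT3G04770 (the second RPSa gene) varied most, 6.72 times, on between 4 and 16 pairs.

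**Figure D1:**
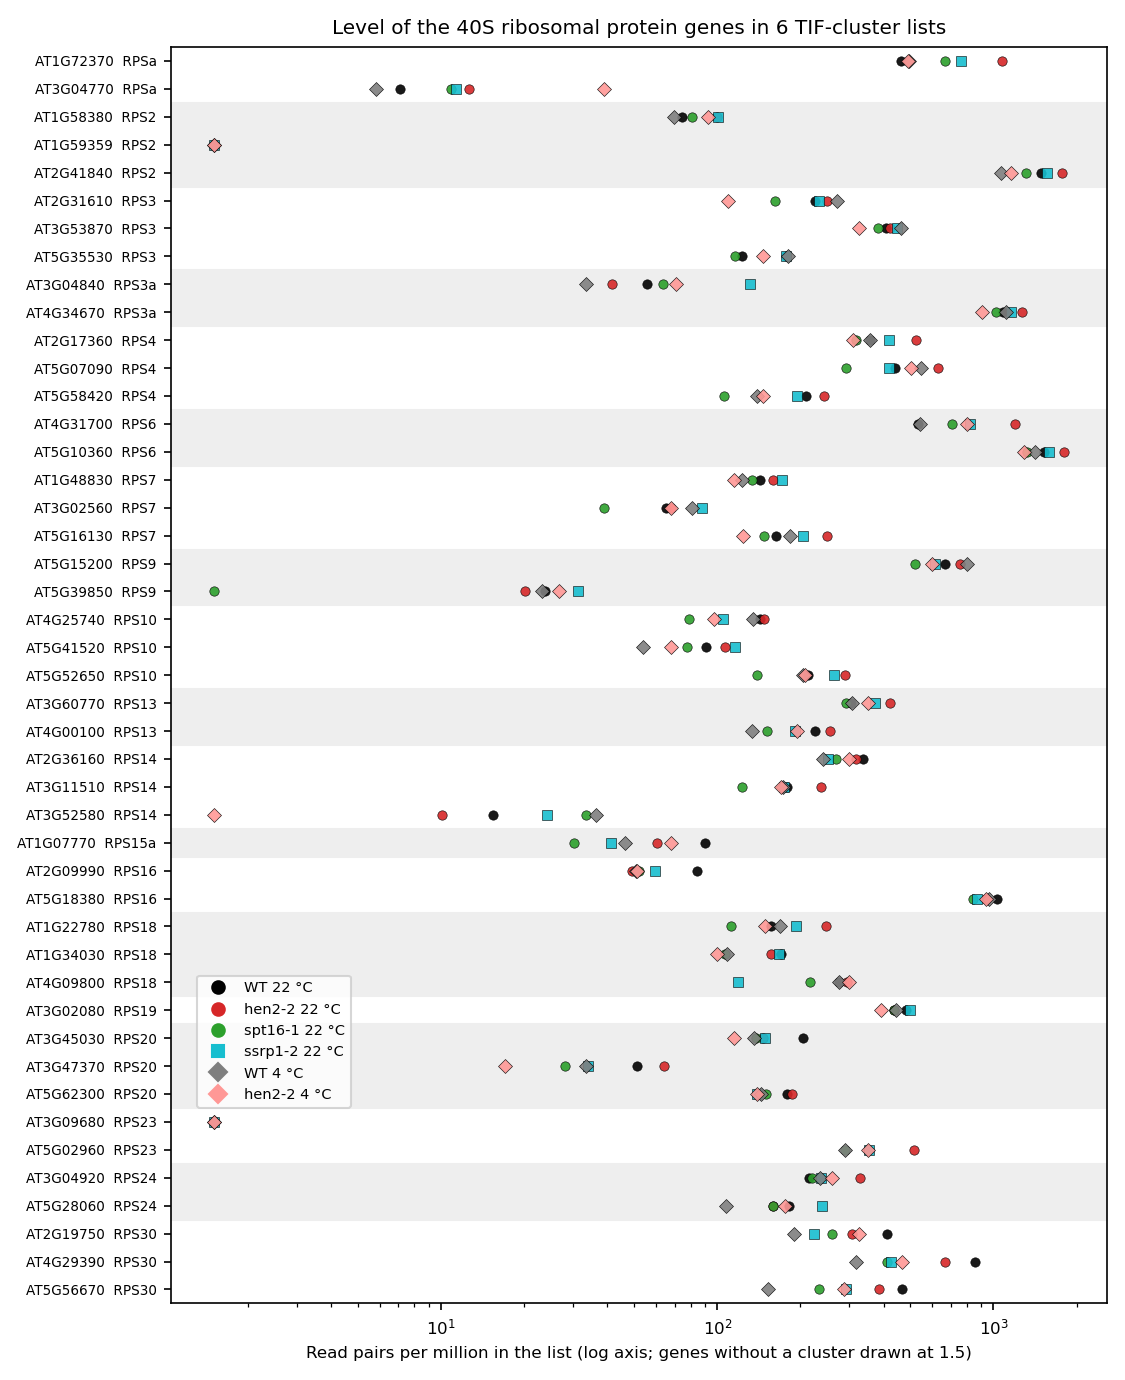
Level of 45 of the 52 genes in the 6 TIF-cluster lists, in CPM on a log axis, grouped by protein family (alternate shading). Each symbol is the value of 1 pooled list, and genes without a TIF-cluster are drawn at 1.5. Levels of a gene mostly lie close together across lists, while paralogues of a family often lie far apart, such as AT2G41840 (1069 to 1771) and AT1G58380 (69.6 to 101) of RPS2.

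Among the genes with a TIF-cluster in none of the 6 lists were AT1G59359 (RPS2) and AT3G09680 (RPS23, at the decoding centre). Only uniquely aligned reads were kept, and 100% of the 31-base words in the first and in the last 150 bases of the AT1G59359 span occur elsewhere on chromosomes 1 to 5. For AT3G09680 none of these words did. TIF-clusters under 3 pairs were discarded, so that a gene absent from a list may still be transcribed. For AT1G07770 (RPS15a), 100% of the words in its first 150 bases occur elsewhere, and most of its pairs began inside the annotated coding span. In 47 of the 52 genes no word of the first or last 150 bases was repeated, and the other 3 had few, 8.33% of the first words in AT3G45030 (RPS20) and 1.67% in the RPS16 genes AT2G09990 and AT5G18380.

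In 8 of the 20 families with more than 1 locus, the same gene took over 89% of the pairs of its family in each of the 6 lists. Among these were RPSa (AT1G72370, 92.6 to 98.8%), RPS2 (AT2G41840, 92.6 to 95.2%), RPS3a (AT4G34670, 89.8 to 97.1%), RPS9 (AT5G15200, 95.2 to 100%), RPS16 (AT5G18380, 92.4 to 95%), and RPS23, in which the other locus was in no list. The second RPS9 gene, AT5G39850, had between 11 and 22 pairs in 5 lists and no TIF-cluster in spt16-1.

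Elsewhere the use of paralogues was more even, as in RPS3 (AT3G53870, 49.8 to 57.8% of its family), RPS7 (AT5G16130, 40.5 to 52.5%), RPS10 (AT5G52650, 47.1 to 55.6%), RPS13 (AT3G60770, 57.3 to 69.8%), RPS14 (AT2G36160, 53.7 to 63.7%) and RPS30 (AT4G29390, 43.2 to 49.4%). The leading gene was the same in all 6 lists in 16 of the 20 families and differed in 4. In RPS18, a protein of the head of the subunit, AT4G09800 (RPS18C) led in 5 lists with 42.2 to 54.7%, but in ssrp1-2 it had 84 of 338 pairs (24.9%, 95% interval 20.3 to 29.8%), behind AT1G22780 (PFL, mutants of which have pointed first leaves) with 40.2% and AT1G34030 with 34.9%. In the other lists AT4G09800 had 233 pairs in wild type, 200 in spt16-1, 234 in hen2-2, 190 in wild type at 4 °C and 123 in hen2-2 at 4 °C.

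The leading gene also differed in RPS24, RPS20 and RPS4, with smaller margins. In RPS24, AT3G04920 and AT5G28060 took 54.2 and 45.8% in wild type and 49.7 and 50.3% in ssrp1-2, while AT3G04920 took 67.5% (62.6 to 72.2%) in hen2-2 and 68.6% (62.3 to 74.5%) in wild type at 4 °C. In RPS20, AT3G45030 led in wild type (47.0%) and ssrp1-2 (46.3%) and AT5G62300 in the other 4 lists, the highest at 51.4% (41.7 to 61.0%) in hen2-2 at 4 °C. In RPS4, AT5G07090 led in 4 lists, AT2G17360 led in spt16-1 with 44.5% against 40.7%, and both had 296 pairs in ssrp1-2.

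**Figure D2:**
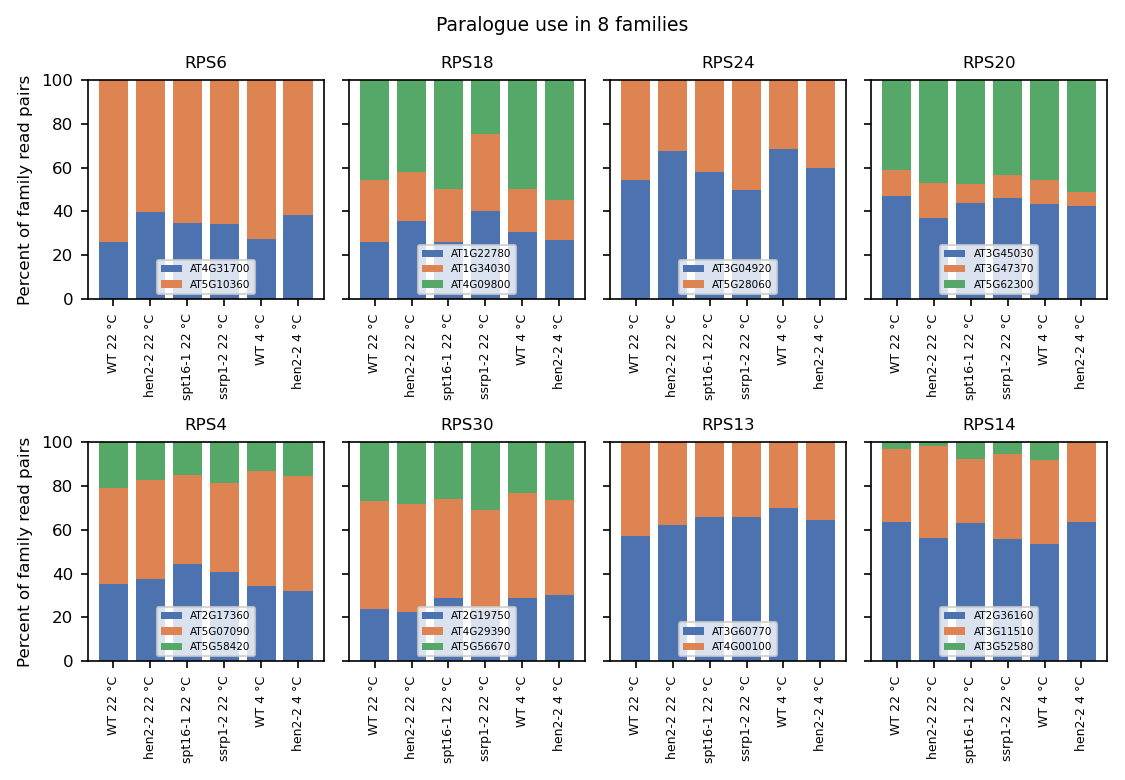
Percent of the read pairs of a family that came from each of its genes, in 8 families and 6 lists. Each bar is 1 pooled list and sums to 100. AT4G09800 shrinks to 24.9% of RPS18 in ssrp1-2, and AT4G31700 grows from 25.9% of RPS6 in wild type to 39.8% in hen2-2.

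The hen2-2 mutant was compared with wild type to ask which RNA accumulates without the helicase. Of 48 genes with at least 20 pairs in both lists together, 2 were past 2-fold higher in hen2-2 and 0 lower, where 12.6% of 7163 coding genes were past 2-fold higher and 8.99% lower (ratios of CPM + 1). The median log2 ratio over the 48 genes was 0.17, against 0.08 over all coding genes. AT1G72370 (RPSa, also known as P40, related to the laminin receptor of animals) had 464 CPM in wild type and 1073 in hen2-2, a ratio of 2.31 (2.05 to 2.61). AT4G31700 (RPS6) had 533 in wild type and 1194 in hen2-2, a ratio of 2.24 (2.00 to 2.51). For both genes almost none of the gain was short RNA, with 3 short pairs of 852 for AT1G72370 and 8 of 948 for AT4G31700.

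The levels of AT1G72370 and AT4G31700 in the other lists did not follow the same order. AT1G72370 had 665 CPM in spt16-1 and 763 in ssrp1-2, but 493 in wild type and 489 in hen2-2 at 4 °C. AT4G31700 had 705 in spt16-1, 822 in ssrp1-2, 540 in wild type at 4 °C and 801 in hen2-2 at 4 °C. The paralogue AT5G10360 varied less, so that AT4G31700 made up 25.9% (23.9 to 28.0%) of RPS6 pairs in wild type, 39.8% (37.8 to 41.8%) in hen2-2, 27.6% in wild type at 4 °C, 38.4% in hen2-2 at 4 °C, 34.8% in spt16-1 and 34.2% in ssrp1-2.

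The FACT mutants spt16-1 and ssrp1-2 were compared with wild type to ask whether these genes differ in them. In spt16-1, 1 gene was past 2-fold higher and 3 lower of 48, where 13.6 and 7.97% of all coding genes were. Of the 48, 41 (85.4%) had ratios below 1, against 44.3% of all coding genes. The median log2 ratio of the 48 was -0.30 against 0.11 over all coding genes. The other genes of the small subunit had a median of -0.58 (31 tested, 0 higher and 6 lower). In ssrp1-2 the counts were 1 higher and 3 lower of 48, where 11.9 and 11.4% of all coding genes were, and the median was 0.05 against 0.07. The RPS30 genes AT4G29390 and AT5G56670 were both lower. AT4G29390 had 858 CPM in wild type, 412 in spt16-1 (2.08-fold lower, 1.84 to 2.36) and 425 in ssrp1-2 (2.02-fold lower, 1.76 to 2.31), and AT5G56670 had 467, 234 and 292 in the same lists. AT4G09800 was 2.32-fold lower in ssrp1-2 (1.80 to 3.01), with 276 CPM in wild type against 119.

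Of the low genes, AT3G04840 (RPS3a) was 2.37-fold higher in ssrp1-2 (1.65 to 3.44), at 132 CPM against 55.7. AT1G07770 (RPS15a), whose start region is repeated in the genome, had 90.1 CPM in wild type, 30.3 in spt16-1 and 41.1 in ssrp1-2. AT3G52580 (RPS14, on the platform of the subunit) had 31 pairs in spt16-1 and 13 in wild type, and AT5G39850 had 20 in wild type and no TIF-cluster in spt16-1. These comparisons share the wild-type list at 22 °C, so that an unusual value there moves all of them.

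**Figure D3:**
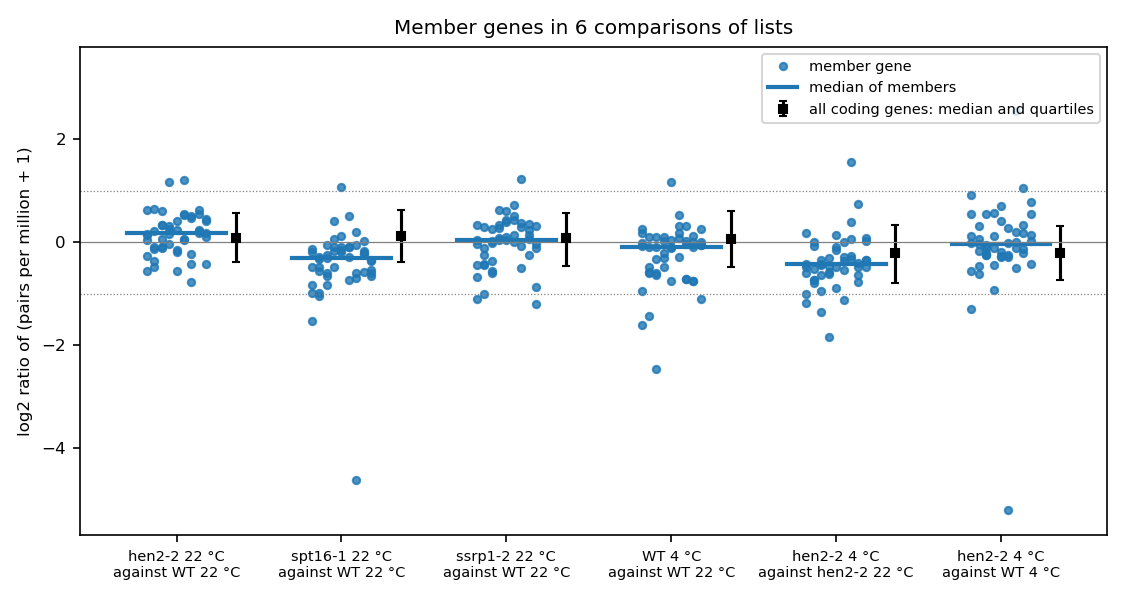
log2 ratio of (CPM + 1) of each gene with at least 20 pairs in both lists together, for 6 comparisons of lists. Points are genes, horizontal bars their median, and squares with whiskers the median and quartiles of all coding genes; dotted lines mark 2-fold. The 48 genes are shifted down in spt16-1 (median -0.30), and the lowest points, near -5, are genes without a TIF-cluster in 1 list, whose ratio depends on the added 1.

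The RPS30 genes were lower in wild type in the cold. In wild type after 3 h at 4 °C, 1 gene was past 2-fold higher and 4 lower of 48, where 14.4 and 11.8% of all coding genes were, and the median log2 ratio was -0.10 against 0.06. Of the 4 lower genes, 3 were the RPS30 genes. RPS30 is a small protein that animals make as a fusion with a ubiquitin-like protein. AT4G29390 had 858 CPM at 22 °C and 317 at 4 °C (2.70-fold lower, 2.32 to 3.16), AT5G56670 had 467 and 152 (3.07-fold lower, 2.47 to 3.85) and AT2G19750 had 410 and 190 (2.16-fold lower, 1.76 to 2.66). Over the family this was 1735 against 659 CPM, and the share of each gene in it stayed within 23.1 to 49.4% in both lists. The other genes of the small subunit had a median log2 ratio of -0.51 in this comparison (30 tested, 0 higher and 5 lower), so that lower levels were not limited to RPS30. The higher gene, AT3G52580, had 13 pairs at 22 °C and 25 at 4 °C.

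The cold difference of RPS30 was smaller in hen2-2. The family had 1360 CPM in hen2-2 at 22 °C and 1081 at 4 °C, 1.26-fold lower (1.12 to 1.41), against 2.63-fold lower (2.37 to 2.93) in wild type. At 22 °C the family was lower in hen2-2 than in wild type, and at 4 °C it was 1.64-fold higher (1.44 to 1.87). These intervals cover counting error only, and the difference between genotypes was not tested over replicates. Replicates of wild type in the cold also correlated least of all groups in the study, so the intervals may understate the error there. In hen2-2 at 4 °C against 22 °C, 1 gene was past 2-fold higher and 5 lower of 48, where 9.38 and 19.4% of all coding genes were, with a median log2 ratio of -0.43 against -0.21. AT1G72370 was 2.19-fold lower (1.88 to 2.57), AT2G31610 (RPS3, at the mRNA entry) 2.27-fold lower (1.64 to 3.22) and AT5G16130 (RPS7) 2.02-fold lower (1.48 to 2.80). Others past 2-fold had few pairs, such as AT3G47370 (RPS20) with 51 at 22 °C and 7 at 4 °C and AT3G04770 with 10 and 16. Scaling by the median ratio over genes in all lists leaves 3 genes past 2-fold lower in this comparison and 5 in spt16-1. Relative to wild type at 22 °C, it changes the log2 divisor of hen2-2 at 4 °C by -0.10. The divisor of hen2-2 at 22 °C changes by 0.08 and that of spt16-1 by 0.10. Levels thus rise in hen2-2 at 4 °C and fall in hen2-2 at 22 °C and in spt16-1.

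At 4 °C, hen2-2 against wild type had 2 genes past 2-fold higher and 2 lower of 48, where 8.06 and 17.9% of all coding genes were, and a median log2 ratio of -0.04 against -0.20. AT2G31610 had 45 pairs in hen2-2 and 188 in wild type (2.49-fold lower, 1.79 to 3.52), and AT3G52580 had 25 pairs in wild type and no TIF-cluster in hen2-2. AT3G04840 had 29 pairs in hen2-2 and 23 in wild type. The other higher gene, AT3G04770, had 16 pairs in hen2-2 and 4 in wild type, and all of the 16 were short RNA at its start.

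Short RNA at the start of a gene, named short promoter-proximal RNA (sppRNA) in the study of these libraries, was counted as TIF-clusters under 350 nt that overlap the most used 5′ end within 40 nt, do not span the coding sequence and do not reach the annotated gene end. None of the 52 genes had one in wild type at 22 °C, ssrp1-2 or wild type at 4 °C, where 2.11, 0.721 and 0.747% of coding genes with a TIF-cluster had one, and 1 of 48 had one in spt16-1 (1.35% of coding genes). In hen2-2, 19 of 49 had one, where 14.4% of coding genes did, and in hen2-2 at 4 °C, 17 of 48, where 16.4% did. The genes with one numbered 25 over both hen2-2 lists. Shared between the lists were 11, which are 57.9% of those at 22 °C and 64.7% of those at 4 °C. Over all coding genes with short RNA, 899 were shared, 55.6 and 61.8% of the lists.

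These counts rest on the definition of the start and on depth. With the annotated start of the Araport11 gene models in place of the most used 5′ end, 5 of 49 genes had short RNA in hen2-2, where 3.84% of coding genes did. At 4 °C 5 of 48 did, where 4.36% of coding genes did. The study also used annotated starts for sppRNA, but with the TAIR10 gene annotation, so these counts are not those of its own definition. Thinned to the 410655 pairs of the smallest list, hen2-2 at 22 °C would be expected to show 8.26 genes, against 17 at 4 °C, and over all coding genes 9.43% against 16.4% of those with a TIF-cluster. The share of genes with short RNA also rose with the pairs of the gene. Whether the minimum of 3 pairs accounts for this was not tested. Among genes with at least 200 pairs in hen2-2, 14 of 24 40S genes (58.3%) and 228 of 605 other coding genes (37.7%) had short RNA, among those with 50 or more and fewer than 200 pairs 5 of 17 and 22.1%, and among those with fewer than 50 pairs 0 of 8 and 11%. At 4 °C the values were 5 of 9 and 43.8%, 8 of 23 and 28.1%, and 4 of 16 and 13.7%.

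Short RNA was a small part of the read pairs of these genes. Whether RNA this short is recovered in the libraries as well as longer RNA was not tested. It made up 166 of 16082 pairs in hen2-2 (1.03%, 0.882 to 1.20%) and 189 of 6026 in hen2-2 at 4 °C (3.14%, 2.71 to 3.61%), against 2.08 and 3.32% of the pairs of all coding genes. Per pair of the 40S genes it was thus 3.04-fold more frequent at 4 °C than at 22 °C in hen2-2 (2.45 to 3.77), and over all coding genes 1.59-fold (1.56 to 1.63). Per pair of the list, short RNA of the 40S genes was 2.20-fold more frequent (1.78 to 2.73). All pairs of these genes were fewer at 4 °C, 14674 against 20247 CPM. At equal depth the share at 22 °C would be 0.697%. The other 38 genes of the small subunit had larger shares, 193 of 4175 pairs in hen2-2 (4.62%, 4.01 to 5.30%) and 157 of 1664 at 4 °C (9.44%, 8.07 to 10.9%), at 12 of 34 and 13 of 31 genes with a TIF-cluster. Among them were AT5G61170 (RPS19), with 53 short pairs of 280 in hen2-2 and 56 of 119 at 4 °C, and AT5G03850 (RPS28), with 30 and 14, whereas RACK1 (AT1G18080), the most abundant of the 38, had none.

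The genes AT3G60770 (RPS13) and AT5G18380 (RPS16) had more short RNA than any other of the 52 genes, 39.2% of its pairs in hen2-2 and 49.7% at 4 °C. AT3G60770 had 37 short pairs of 334 in hen2-2 (11.1%, 7.92 to 14.9%) and 45 of 144 at 4 °C (31.2%, 23.8 to 39.5%), and none of 256, 213, 270 and 262 pairs in wild type at 22 °C, wild type at 4 °C, spt16-1 and ssrp1-2. AT5G18380 had 28 of 748 in hen2-2 (3.74%, 2.50 to 5.36%) and 49 of 387 at 4 °C (12.7%, 9.52 to 16.4%), and none of between 614 and 869 pairs in the other 4 lists. Without these 2 genes the shares of the others were 0.673% in hen2-2 and 1.73% at 4 °C.

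Fewer short pairs at 22 °C were found for AT4G31700 (RPS6) and AT4G00100 (RPS13A, or PFL2) with 8 each, and AT5G56670 (RPS30) and AT5G62300 (RPS20) with 6 each. At 4 °C these genes had 3, 8, 0 and 0 pairs, in that order. AT3G02080 (RPS19) had 4 pairs at 22 °C and none at 4 °C. Of the genes with short RNA, 12 of 19 in hen2-2 and 11 of 17 at 4 °C had only 3 to 6 pairs, close to the minimum of 3. AT3G04770 had 16 short pairs of 16 at 4 °C (100%, 79.4 to 100%) and none of 10 at 22 °C. It overlaps AT3G04780 on the same strand. Over the genes that overlap no other coding gene, 14 had short RNA in hen2-2 (1.16% of pairs) and 12 at 4 °C (3.27%).

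**Figure D4:**
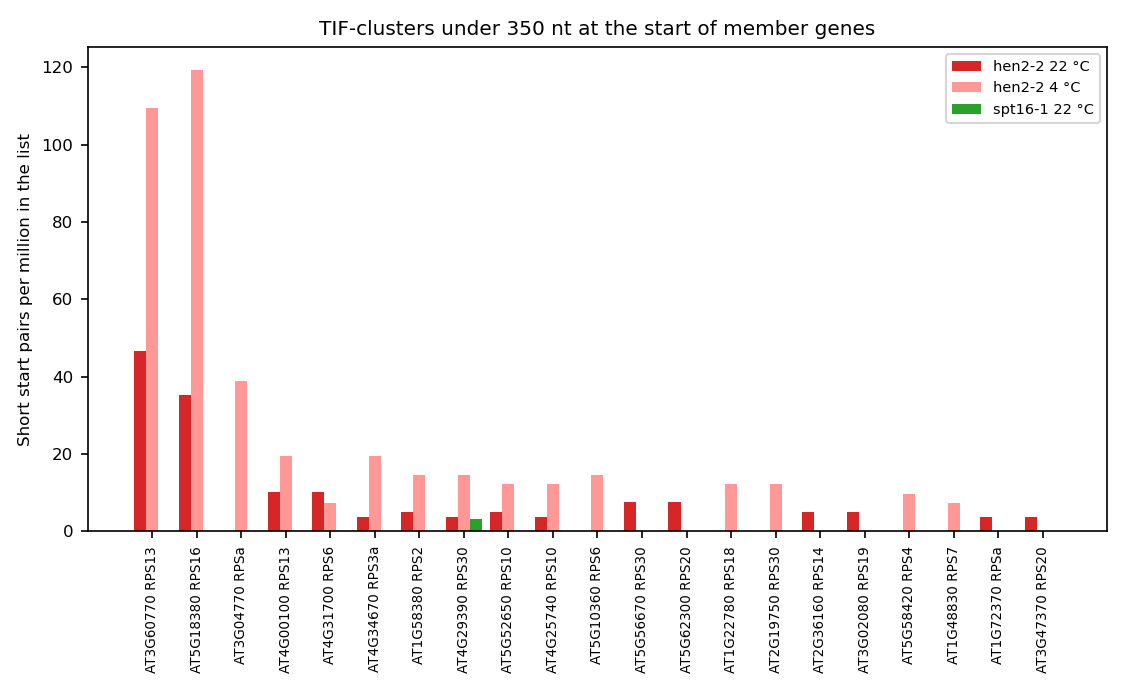
Short start pairs in CPM for 21 of the 25 genes with such RNA in hen2-2, at 22 °C and 4 °C, and in spt16-1. Bars are single pooled lists, and no gene had a value in wild type at 22 °C, ssrp1-2 or wild type at 4 °C. AT3G60770 and AT5G18380 stand above the rest in both hen2-2 lists.

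Short RNA spanned a median of 100 nt (53 to 161) in hen2-2 and 93 nt (54 to 274) at 4 °C, close to the medians of 91 and 89 nt over all coding genes. Their 5′ ends lay within 5 nt of the most used 5′ end of the full-length RNA in 21 of 34 TIF-clusters in hen2-2 and 18 of 29 at 4 °C, and within 10 nt in 28 and 25. In hen2-2, 21 of the 34 ended in an intron of the first annotated isoform, 9 in a coding exon and 4 in the 5′-UTR. In hen2-2 at 4 °C, 12 of 29 ended in an intron, 13 in a coding exon and 4 in the 5′-UTR. The median 3′ end lay 29 nt past the first base of the start codon at 22 °C and 33 nt past it at 4 °C, and 7 of 34 and 5 of 29 ended before it. The TIF-cluster of AT4G29390 in spt16-1 (3 pairs, 265 nt) had the same ends as one in hen2-2 at 4 °C.

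Both hen2-2 lists come from separate libraries, and some 3′ ends recurred between them. How often such ends recur over all coding genes was not counted. Of the 29 short TIF-clusters at 4 °C, 12 (41.4%) ended within 5 nt of a short TIF-cluster of the same gene at 22 °C, at 7 genes, and 12 of the 34 at 22 °C (35.3%) had such a partner at 4 °C. AT5G52650 (RPS10) ended 118 nt after the most used 5′ end in both lists. The sequence is printed around the recurrent ends of AT3G60770 and AT5G18380 that had at least 10 pairs in both lists. AT5G18380 had further recurrent ends with fewer pairs in at least 1 list. Shown are 14 bases on each side, 5′ to 3′ on the strand of the gene, with the last base of the TIF-cluster in capitals.
AT3G60770, 22 °C, 17 pairs, chr3:22461642-22461670: tcgccgtcgcagtcAtgggtcgaatgcat
AT3G60770, 4 °C, 19 pairs, chr3:22461643-22461671: ttcgccgtcgcagtCatgggtcgaatgca
AT3G60770, 22 °C, 14 pairs, chr3:22461620-22461648: aatgcatagtagagGgttcgtttccttct
AT3G60770, 4 °C, 10 pairs, chr3:22461621-22461649: gaatgcatagtagaGggttcgtttccttc
AT5G18380, 22 °C and 4 °C, 10 pairs each, chr5:6090627-6090655: cggaaggaagaagaCcgcagtggccgtca

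The first of these ends fell on the A of the start codon of AT3G60770 and the second 1 base before it. The next pair lay on the last base of the first exon at 22 °C and 1 base before it at 4 °C. In AT5G18380, whose first annotated isoform has a single exon, the ends in hen2-2 lay 69, 92, 114 and 135 nt after the most used 5′ end, and at 4 °C 67, 83, 89, 114 and 136 nt after it. The steps of 23, 22 and 21 nt at 22 °C are just over the 20 nt within which the authors joined ends into a TIF-cluster. Whether the steps come from that rule was not tested.

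The 3′ ends of short and of full-length RNA lay in different sequence. Over the distinct ends in both hen2-2 lists, the 31 bases up to a short end held 31% T and 44.8% G or C (60 ends), and those up to a full-length end of any of the 52 genes 44.8% T and 29.2% G or C (551 ends). Over all coding genes the values were 30.0 and 42.9% before short ends and 40 and 29.2% before full-length ends. The 10 bases after a short end held 20.3% A, against 26.7% after a full-length end (25.8 and 28% over all coding genes), and a run of 6 A followed 0 of the 60 short ends. The authors removed TIF-clusters that end at such runs in the genome. AATAAA stood in the 31 bases before 0 of 60 short and 2 of 551 full-length ends (0.363%), against 37 of 4630 short (0.799%) and 3840 of 53166 full-length ends (7.22%) over all coding genes.

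**Figure D5:**
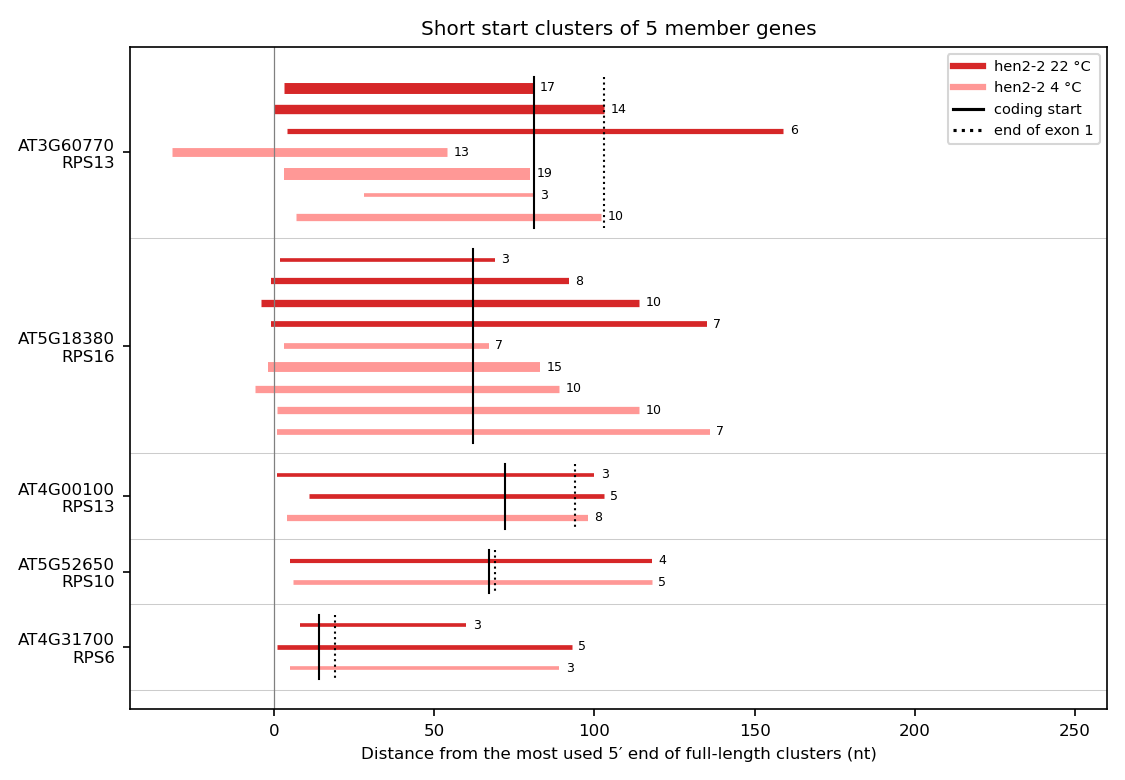
Short start TIF-clusters of 5 genes in hen2-2 at 22 °C and 4 °C, as distance in nt from the most used 5′ end of full-length TIF-clusters. Each line is a TIF-cluster, its thickness and the number at its end give its read pairs, and vertical marks give the coding start and the end of exon 1. Ends of AT3G60770 recur at 80 to 81 nt and at 102 to 103 nt in both lists.

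Most of the read pairs from these genes spanned the coding sequence. Full-length pairs made up 94.4% (94.0 to 94.8%) in wild type, 97% in spt16-1, 96.8% in ssrp1-2, 94.3% in hen2-2, 95.9% in wild type at 4 °C and 91.2% (90.5 to 91.9%) in hen2-2 at 4 °C, against 82.6 to 89.7% over all coding genes. The number of full-length TIF-clusters was 325 in wild type, 315 in spt16-1, 309 in ssrp1-2, 356 in hen2-2, 281 in wild type at 4 °C and 235 in hen2-2 at 4 °C. At 410655 pairs 262, 247, 265, 283, 248 and 235 would be expected, in that order. A gene with any had 6.77 of them on average in wild type, against 3.53 over all coding genes. Of the genes described here, AT2G41840 had the most with 16. These averages were not matched for the pairs of a gene, and fewer full-length TIF-clusters are expected at lower depth. Whether the difference holds among genes of similar level was not tested. TIF-clusters whose ends lie within 50 nt of each other at both sides are counted apart here, and joining them leaves 93 in wild type.

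The ends of the full-length RNA were narrow on the 5′ side. The median distance from the 5′ end to the start codon, over pairs of all lists, was 74 nt with quartiles of 63 and 84 nt, against 72 nt with quartiles of 49 and 112 nt over all coding genes. From the stop codon to the 3′ end it was 180 nt (158 to 202) against 182 nt (143 to 227). Within a gene, the interquartile range of the pairs in wild type had a median of 4 nt at the 5′ end and 22 nt at the 3′ end in 37 genes with at least 100 full-length pairs, against 6 and 22 nt over 1260 coding genes.

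RNA that began past the first base of the coding span and did not end inside it made up 5.21% of the pairs in wild type, 2.88% in spt16-1, 3.07% in ssrp1-2, 4.53% in hen2-2, 3.97% in wild type at 4 °C and 5.34% in hen2-2 at 4 °C. Most such starts lay in coding exons, but some lay in the 3′-UTR, such as those of AT2G36160 (RPS14) with 28 pairs in wild type at 22 °C. Starts within 20 nt of each other formed 12 sites at 8 genes that were found in all 6 lists. The most used was in AT5G15200 (RPS9), 304 to 350 nt into the coding span in its second exon, with 89 pairs in wild type, 49 in spt16-1, 60 in ssrp1-2, 90 in hen2-2, 78 in wild type at 4 °C and 39 in hen2-2 at 4 °C. These were 15.9, 10.2, 13.8, 15, 14.1 and 15.9% of the pairs of the gene. AT4G31700 (RPS6) had a start in its first intron, 77 to 80 nt into the coding span, with 55 pairs in wild type (12.2% of the gene), 41 in spt16-1 (6.29%), 36 in ssrp1-2 (6.21%), 35 in hen2-2 (3.69%), 21 in wild type at 4 °C (5.63%) and 23 in hen2-2 at 4 °C (6.99%). AT5G18380 had starts 257 to 315 nt into its coding span, with 96 pairs in wild type (11%), 43 in spt16-1 (5.52%), 18 in ssrp1-2 (2.93%), 41 in hen2-2 (5.48%), 49 in wild type at 4 °C (7.37%) and 25 in hen2-2 at 4 °C (6.46%). For both genes the share was highest in wild type at 22 °C. The authors removed TIF-clusters whose start has no support in TSS-seq, a separate mapping of capped 5′ ends that is not analysed here.

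RNA that began before the coding span, ended inside it and was not among the short start RNA counted above was rare, at 59 pairs in wild type and between 14 and 21 in the other lists. In wild type 52 of the 59 came from AT5G18380, with ends 4 and 12 nt before the end of the coding span over all its isoforms. In the other lists this gene had 10 to 19 pairs with ends 8 to 21 nt before it. Against the coding span of its first isoform alone, these pairs of AT5G18380 were full-length, so that most of the 59 pairs rest on the choice of the coding span. The rest included TIF-clusters of AT2G41840 of 197 nt (4 pairs, wild type), 202 nt (3 pairs, hen2-2) and 64 nt (3 pairs, hen2-2 at 4 °C), which lay outside the 40 nt window at the most used 5′ end.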

How the data were processed

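The authors trimmed adapters and molecular identifiers, aligned reads to TAIR10 with STAR 2.6.1c, kept uniquely aligned reads, removed duplicates, merged the 2 libraries of each group and joined pairs whose ends lay within 20 nt. They dropped TIF-clusters with fewer than 3 pairs, with a 3′ end at a stretch of A in the genome or with no TSS found by TSS-seq. The deposited values are counts of read pairs per TIF-cluster in 6 lists, from 12 libraries of 14-day seedlings. The 6 TSS-seq samples were not analysed here.

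Each TIF-cluster was assigned to the gene on its strand that it overlapped most, and counts were summed per gene and scaled to CPM, pairs per 1000000 pairs of the list (410655 to 924907 pairs per list). Ratios used a pseudocount of 1 CPM and a minimum of 20 pairs in both lists together. Full-length TIF-clusters span the coding sequence. Since replicates were pooled, no test was made, and intervals cover counting error only. Python 3.11.15, pandas 2.3.3, numpy 2.4.6, scipy 1.17.1 and matplotlib 3.10.9 were used, and the scripts were tested on simulated data. Genes named were the 10 highest in mean level, the 10 with most short RNA in hen2-2, those past 2-fold with at least 100 pairs, those of families whose leading gene differed and those with no TIF-cluster. Others with few pairs were named after their values were seen. Members and lists were chosen with earlier results of these data known. Promoter sequences are from RefSeq, TAIR10.1. The values of some genes that this rule names are not reported here, and these genes are left out of the plots that name genes. They stay in the counts and sums.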

Additional observations from a re-analysis of the deposited data

How the results depend on the processing

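No paired analysis was possible because the replicates are pooled in each list. Of 208 summary values under the alternatives, 156 stayed close to the main value and 52 moved. A change of sign was not scored. Scaling by the median ratio changed the sign of the median log2 ratio in ssrp1-2 against wild type (0.05 to -0.02). It also did so in hen2-2 against wild type at 4 °C (-0.04 to 0.09). Values are given in the order wild type, spt16-1, ssrp1-2 and hen2-2 at 22 °C, then wild type and hen2-2 in the cold. With TIF-clusters of at least 5 pairs, the summed levels were 16672.6, 14032.8, 16601.3, 19668.9, 14817.3 and 13836.4 CPM and full-length shares 95.1, 97.7, 97.6, 95.7, 96.8 and 93.6%. Joined within 50 nt at both ends, full-length TIF-clusters numbered 93, 92, 91, 110, 92 and 85. In spt16-1 against wild type, scaling by the median ratio left 0 genes past 2-fold higher and 5 lower with a median log2 ratio of -0.40, and a pseudocount of 5 left 0 higher. In hen2-2 at 4 °C against 22 °C, a minimum of 5 pairs left 0 higher, and scaling left 3 lower with a median of -0.25. In hen2-2 against wild type at 4 °C, a minimum of 5 pairs or a pseudocount of 5 left 1 higher, and scaling gave a median of 0.093.

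For short RNA, a window of 100 nt gave 1 gene (0.0278% of pairs) in wild type. In spt16-1, the annotated start, a limit of 200 nt, a minimum of 5 pairs and genes without overlap (chosen after seeing the data) each gave 0 genes and 0%, and equal depth 0.0875 genes (0.00458%). In hen2-2, the annotated start gave 5 genes (0.187%), a minimum of 5 pairs 6 (0.544%) and equal depth 8.26 (0.697%). At 4 °C, the annotated start gave 5 (0.614%) and a minimum of 5 pairs 11 (2.66%). Families led by another gene than in wild type numbered 3 in ssrp1-2 with the tie in RPS4 counted, against 1 by full-length TIF-clusters, and 1 in hen2-2 at 4 °C, against 2 with a minimum of 5 pairs. The cause of these differences was not tested. A gene enters the count of genes with short RNA only with a TIF-cluster of at least 3 pairs.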
